A study of Rattus norvegicus with 10 samples.

Results

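The 10 genes described here carry the urea cycle and the zonated handling of nitrogen in liver. They are Cps1, Otc, Ass1, Asl and Arg1 of the urea cycle, Gls2 and Glul of glutamine turnover, and Hal, Sds and Oat of amino acid breakdown. They were listed by name, and each was read from its single-symbol probe set with the highest variance over the arrays, 10 genes of the 14217 measured. The livers came from male Wistar rats made cirrhotic by inhaling CCl4, a toxin that hepatocytes of the central zone activate. CVX-060 binds angiopoietin-2, a ligand of the endothelial receptor Tie2. The CVX-060 group was 5 cirrhotic rats injected intravenously through the tail vein with 10 mg/kg once a week for 4 weeks. The vehicle group was 5 cirrhotic rats injected with vehicle. All 10 rats were cirrhotic, so that both groups share the injury and no healthy liver enters any value below. Each rat gave 1 array from 150 ng of whole-liver RNA.

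In mammals the urea cycle turns ammonia, which is toxic to the brain, into urea in hepatocytes around the portal vein. Cps1 and Otc work in the mitochondrion and Ass1, Asl and Arg1 in the cytosol, while Gls2 releases ammonia from glutamine beside them. Ammonia that passes this zone is bound into glutamine by Glul in a thin rim of hepatocytes around the central vein, where Oat makes glutamate from ornithine. For this reason the 10 genes are read below as 8 periportal genes (Cps1, Otc, Ass1, Asl, Arg1, Gls2, Hal and Sds) and 2 pericentral genes (Glul and Oat).

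Array medians lay between 5.52 and 5.57 on the log2 scale. The hepatocyte markers Alb, Apoa1, Ttr, Apob and Serpina1 were above background in every rat, and their log2 summed signal ranged over 16.20 to 16.24 with CVX-060 and 16.17 to 16.28 with vehicle. CVX-060 rat 5 and vehicle rat 2 stood apart, with scores of 35.5 and 34.5 on a first principal component that held 35.4% of the variance, where the other 8 rats lay between -26.2 and 9.74. Their liver genes also went against the male label in part, in genes looked up after their values were known. Cyp2c12, the female-type P450 of rat liver, read 12.02 in CVX-060 rat 5 and 12.71 in vehicle rat 2 and 7.11 to 9.79 in the other 8 rats. Cyp2c11, the male-type P450, read 11.42 in CVX-060 rat 5 and 8.99 in vehicle rat 2 and 12.69 to 13.93 in the others. The Y-linked Eif2s3y read 8.99 to 9.36 over all rats, and Xist was below background in all of them. For the 10 genes and their named pairs, values that leaving out CVX-060 rat 5 and vehicle rat 2 moved by over 1.5 times are given both ways below. The paper kept 2 replicates of each treatment after quality control and a principal component plot, and its text does not name them. All 10 rats are used here.

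All 10 genes were read far above background, set at the 95th percentile of 19 probe sets for chemosensory receptors (smell, pheromone and trace amine), and which lay at 5.36 to 6.08 across arrays. The lowest signal of any of the 10 genes in any rat was 8.53, of Hal in CVX-060 rat 5. The genes differed widely in how far the cirrhotic rats lay from each other. The SD over the 10 rats had a median of 0.30 over these genes, against 0.18 over all genes and 0.21 over the 7427 genes above background in every rat, and it ran between 0.08 for Arg1 and 0.75 for Hal. The SD of 4 genes, Arg1, Cps1, Ass1 and Gls2, was below that last median and that of 6 above it. Without CVX-060 rat 5 and vehicle rat 2 the median over these genes was 0.24, against 0.16 over all genes and 0.19 over those above background.

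The urea cycle held both the steadiest and some of the more variable genes. Arg1, the arginase that releases urea, read 13.62, 13.69, 13.60, 13.73 and 13.77 in CVX-060 rats 1 to 5, against 13.55, 13.70, 13.75, 13.75 and 13.82 in vehicle rats 1 to 5. Its highest rat was 1.20-fold above its lowest, and 6.34% of all genes had a smaller SD. Cps1, which makes carbamoyl phosphate from ammonia and commits it to the cycle, read 13.24, 13.33, 13.16, 13.30 and 13.14 with CVX-060, against 13.00, 13.04, 13.26, 13.27 and 13.31 with vehicle. Vehicle rats 1 and 2 were the lowest, and the other 8 rats lay between 13.14 and 13.33. A second Cps1 probe set read 13.48 to 13.62 with an SD of 0.05, against 0.11 for the one used, and followed it loosely (r = 0.37 over the 10 rats). Ass1, which joins citrulline to aspartate, read 13.45, 13.49, 13.42, 13.71 and 13.57 with CVX-060, against 13.30, 13.28, 13.33, 13.54 and 13.60 with vehicle, an SD of 0.14. The array maxima were 14.77 to 14.81 on the same scale, so that these 3 genes were read within 2 log2 units of the brightest probe set.

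Otc and Asl varied more. Otc, the mitochondrial ornithine carbamoyltransferase, read 12.40, 12.54, 12.81, 11.93 and 11.60 with CVX-060, against 12.73, 11.91, 12.60, 12.72 and 12.74 with vehicle. CVX-060 rats 4 and 5 and vehicle rat 2 lay below all others, and the highest rat was 2.31-fold above the lowest. Without CVX-060 rat 5 and vehicle rat 2 its SD was 0.29, against 0.43 over all 10 rats. Asl, the argininosuccinate lyase that yields arginine, read 11.87, 11.97, 11.95, 12.31 and 12.15 with CVX-060, against 11.44, 12.45, 12.04, 11.88 and 12.07 with vehicle. Its 3 highest values came from the same 3 rats, vehicle rat 2, CVX-060 rat 4 and CVX-060 rat 5, and its lowest from vehicle rat 1. A second Asl probe set followed it closely (r = 0.99 over the 10 rats).

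The genes of amino acid breakdown were the most variable of the set. Hal, the histidine ammonia-lyase that frees ammonia from histidine, read 10.00, 10.56, 10.87, 10.05 and 8.53 with CVX-060, against 9.99, 9.43, 9.02, 9.29 and 10.51 with vehicle. CVX-060 rat 3 was 5.08-fold above CVX-060 rat 5, so that the extremes lay within 1 group, and 97.7% of all genes had a smaller SD. Sds, the serine dehydratase that yields pyruvate and ammonia, read 11.59, 12.00, 12.46, 12.39 and 12.54 with CVX-060, against 11.10, 12.03, 12.87, 12.45 and 12.93 with vehicle. Vehicle rat 1 and CVX-060 rat 1 were the lowest, and its highest rat, vehicle rat 5, was 3.55-fold above vehicle rat 1. Gls2, the liver glutaminase, was among the steadier genes with 11.49 to 11.96 with CVX-060, against 11.47 to 12.03 with vehicle, an SD of 0.19.

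The 2 pericentral genes differed in which rats were low. Glul, the glutamine synthetase, read 10.73, 10.90, 10.67, 9.99 and 10.85 with CVX-060, against 10.40, 10.14, 10.78, 10.72 and 10.15 with vehicle. CVX-060 rat 4 was the lowest, followed by vehicle rats 2 and 5. Oat, the ornithine aminotransferase, read 12.26, 12.70, 12.44, 12.01 and 11.02 with CVX-060, against 12.16, 11.37, 12.21, 12.57 and 12.14 with vehicle. CVX-060 rat 5 and vehicle rat 2 lay clearly below the rest, and without them the SD was 0.24, against 0.52 over all 10 rats. In whole liver, fewer cells of a zone and less RNA per cell cannot be told apart.

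**Figure D1:**
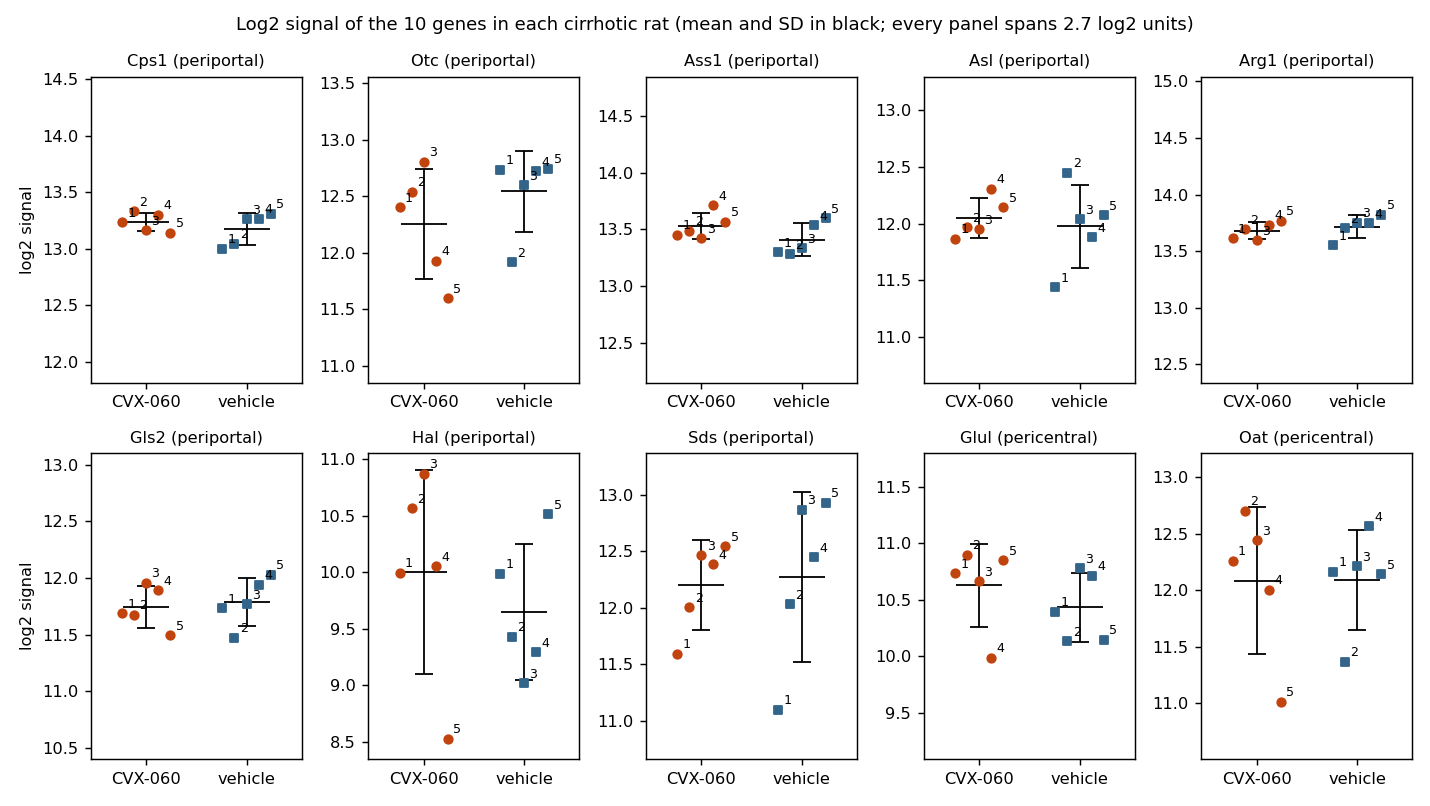
Log2 signal of the 10 genes in each rat, with CVX-060 rats left of vehicle rats, points for rats and bars for the group mean and SD (n = 5 each). The groups overlap in every gene, and the widest spread is that of Hal, between 8.53 and 10.87.

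**Figure D2:**
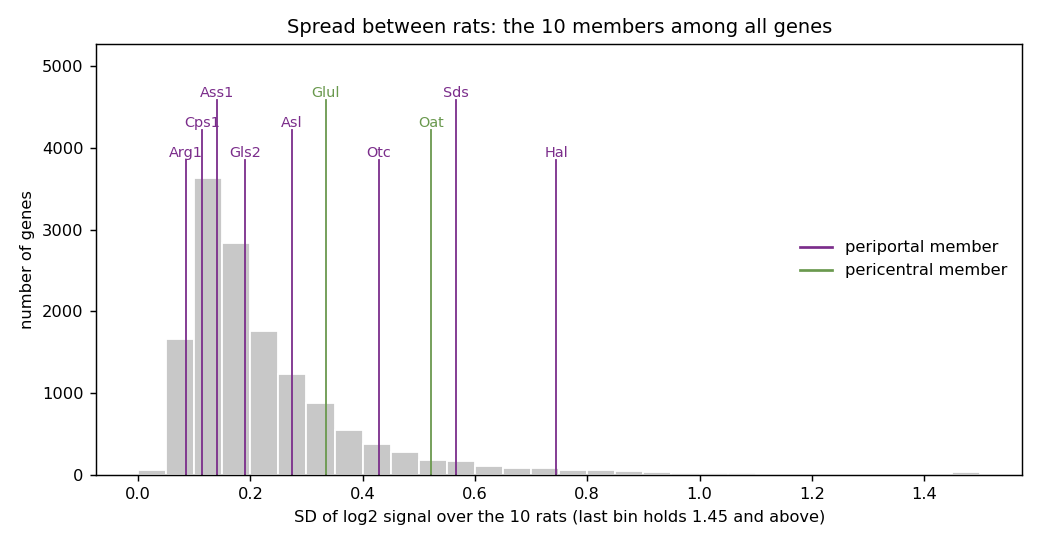
SD of log2 signal over the 10 rats for all 14217 genes as a histogram, with the 10 genes marked at their own SD. Arg1 at 0.08 and Cps1 at 0.11 lie left of the median of all genes, 0.18, while Otc, Oat, Sds and Hal lie at 0.43 to 0.75.

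The urea cycle genes lie apart in the genome (GRCr8), with Cps1 at chr9:76063863-76186739, Otc at chrX:15126358-15202473, Ass1 at chr3:35144765-35194632, Asl at chr12:32295779-32313257 and Arg1 at chr1:22295093-22307720. Glul lies at chr13:68519500-68585554 and Oat at chr1:196777973-196797754. Promoters are shown for 3 genes, Otc and Oat, which were low in the same rats, and Glul, the other pericentral gene. RefSeq promoters (GRCr8) were matched for 7 of the 10 genes, Cps1, Otc, Ass1, Asl, Gls2, Glul and Oat. Each line below holds the 250 bases before the start site, 5′ to 3′ on the gene's strand, with the TCF/LEF letters CTTTGAT, or ATCAAAG where they lie on the other strand, in capitals.
Otc (chrX:15202474-15202723, minus strand): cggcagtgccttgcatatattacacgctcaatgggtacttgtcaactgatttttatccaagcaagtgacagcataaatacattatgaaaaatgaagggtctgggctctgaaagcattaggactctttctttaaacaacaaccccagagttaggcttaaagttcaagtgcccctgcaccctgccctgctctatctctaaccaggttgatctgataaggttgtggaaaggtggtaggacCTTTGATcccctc
Glul (chr13:68519250-68519499, plus strand): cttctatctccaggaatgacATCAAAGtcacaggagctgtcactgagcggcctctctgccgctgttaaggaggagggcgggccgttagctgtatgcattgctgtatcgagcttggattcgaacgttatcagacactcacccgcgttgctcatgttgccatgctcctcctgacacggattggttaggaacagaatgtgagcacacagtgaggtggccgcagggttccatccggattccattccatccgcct
Oat (chr1:196797755-196798004, minus strand): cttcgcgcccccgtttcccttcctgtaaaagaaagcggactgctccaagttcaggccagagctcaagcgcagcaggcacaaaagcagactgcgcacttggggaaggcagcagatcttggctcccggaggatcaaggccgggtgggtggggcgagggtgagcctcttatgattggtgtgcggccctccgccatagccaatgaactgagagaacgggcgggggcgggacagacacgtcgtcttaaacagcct
TCF/LEF factors carry the Wnt signal that marks the central zone, and their letters were searched as CTTTGAT and CTTTGTT on both strands. Otc held them from position -13, counted from its start site, and Glul on the opposite strand from position -230, while the other 5 matched genes, Oat among them, held none in this window. Over all 33469 promoters of 300 bases (50 of them after the start), 9.39% held them. The E-box CACGTG, in 6.42% of all promoters, the cyclic AMP response element's core TGACGT, in 7.94%, and the glucocorticoid receptor's core AGAACA, in 20.7%, were in none of the 7. A match describes the letters and not a bound site.

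Otc and Oat had the highest correlation of the 45 pairs of genes, and it rested on the pair of rats that stood apart. Both enzymes use ornithine, in different zones of the lobule. Over the 10 rats r was 0.84 (permutation p = 0.0030, 0.10 after Benjamini-Hochberg adjustment over the 45 pairs), and Spearman's rho was 0.54 (permutation p = 0.11, adjusted 0.54). Without CVX-060 rat 5 and vehicle rat 2, which were also the rats farthest from the median of Otc and of Oat, r was 0.43 (exact permutation p = 0.29). Gls2 behaved alike with Oat, where r was 0.65 over all rats and -0.18 without those rats. Cyp2c12 was highest in the same rats, and CVX-060 rat 4, next in Cyp2c12 at 9.79, had the next lowest Otc and Oat values; the part of this difference in the genes' spread was not tested. The cholangiocyte markers were likewise highest there. Krt19, Krt7, Epcam, Spp1 and Cftr, of which 2 were above background in all rats and 2 below it in all, had a log2 summed signal of 10.10 in CVX-060 rat 5 and 10.02 in vehicle rat 2 and 8.20 to 9.56 in the other 8 rats, while the hepatocyte markers did not separate them, at 16.24 in CVX-060 rat 5 and 16.28 in vehicle rat 2. The lymphocyte markers Cd3e, Cd3d and Cd2 were also highest in these rats, though 2 of them were below background in all rats. Their log2 summed signal was 6.52 in CVX-060 rat 5 and 6.71 in vehicle rat 2, against 6.35 to 6.46 in the other 8 rats. The part of bile duct cells or lymphocytes was not tested.

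Otc and Asl, which act before and after Ass1 in the cycle, had the lowest r of the 45 pairs. It was -0.66 over the 10 rats (permutation p = 0.033, adjusted 0.28) and rho was -0.56. The relation kept its sign without CVX-060 rat 5 and vehicle rat 2, at r = -0.58, and each rat left out in turn gave -0.74 to -0.58. It did not pass the adjustment over 45 pairs.

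Arg1 and Sds had the next highest r after Otc and Oat, and it did not rest on the rats that stood apart. It was 0.81 (permutation p = 0.0044, adjusted 0.10) and rho 0.81 (permutation p = 0.0076, adjusted 0.20), and without CVX-060 rat 5 and vehicle rat 2 r was 0.82 (exact permutation p = 0.013). Without the 2 rats farthest in Arg1 r was 0.94, and without the 2 farthest in Sds it was 0.53. Within the CVX-060 group r was 0.47, against 0.96 within the vehicle group. The clock gene Bmal1, whose values are given below, was high in CVX-060 rats 1 to 3 and vehicle rats 1 and 2. In those rats Arg1 read 13.55 to 13.70 and Sds 11.10 to 12.46, against 13.73 to 13.82 and 12.39 to 12.93 in the others. The part of Bmal1 in this r was not tested. The change in Arg1 was small beside that in Sds, a 1.20-fold range against a 3.55-fold range, and both were lowest in vehicle rat 1. Without CVX-060 rat 3 this pair alone passed the adjustment (r = 0.97, adjusted permutation p = 0.0026), and without CVX-060 rat 4 only Otc and Gls2 did (r = 0.86, adjusted permutation p = 0.034, where all 10 rats gave r = 0.68). Without CVX-060 rat 5 and vehicle rat 2 the r of Otc and Gls2 was 0.20 (exact permutation p = 0.70). Its rho over all 10 rats was 0.79 (permutation p = 0.0090, adjusted 0.20), so that only the r fell with those rats left out, and rho was not computed without them. With all 10 rats, no pair of the 45 passed the adjustment by r or by rho, 6 had an unadjusted p under 0.05 by r, and 28 had a positive r.

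**Figure D3:**
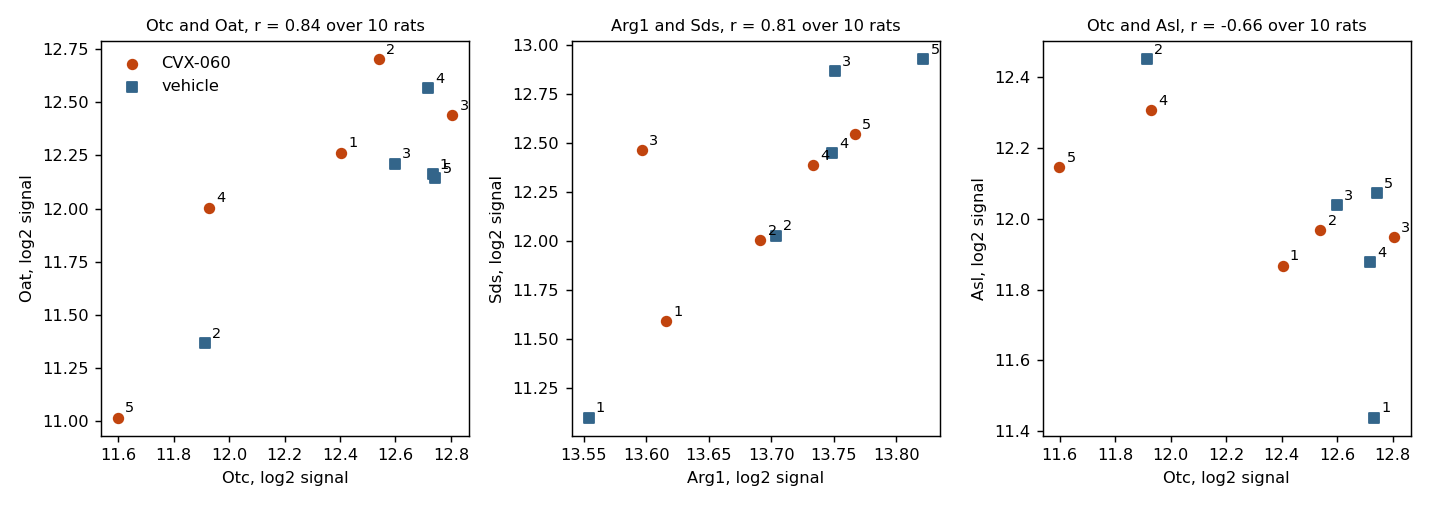
Log2 signal of one gene against another, a point for each rat, coloured by group with CVX-060 first. Otc and Oat are low together in CVX-060 rat 5 and vehicle rat 2, Asl is high where Otc is low, and Arg1 is higher where Sds is, over a range of 1.20-fold.

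Periportal and pericentral genes did not form 2 opposed blocks. Among the 28 pairs of periportal genes 20 had a positive r, with a median of 0.33 and a range of -0.66 to 0.81. Among the 16 pairs of a periportal and a pericentral gene 7 were positive, with a median of -0.04. Over all rats the 2 pericentral genes were not alike. Oat had a positive r with 5 of the 8 periportal genes, between -0.51 and 0.84, and Glul with 2 of 8, between -0.37 and 0.18. This contrast rested in part on CVX-060 rat 5 and vehicle rat 2. Without them the r with periportal genes ran between -0.18 and 0.43 for Oat and between -0.59 and 0.43 for Glul. Oat and Glul had an r of 0.25 over all rats and of 0.78 without CVX-060 rat 5 and vehicle rat 2 (exact permutation p = 0.021, not adjusted). These correlations share arrays and processing, and no test was made of the difference between the kinds of pair.

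Seen rat by rat, the balance of the zones crossed the groups. The mean deviation from the gene's own median over the 8 periportal genes, minus that over the 2 pericentral genes, was -0.22, -0.35, 0.02, 0.46 and 0.21 in CVX-060 rats 1 to 5, against -0.13, 0.46, -0.12, -0.24 and 0.52 in vehicle rats 1 to 5. The highest rats were vehicle rats 5 and 2 and CVX-060 rat 4, and the lowest was CVX-060 rat 2. In vehicle rats 3, 4 and 5, 8 of the 10 genes were above their own median, and in vehicle rats 1 and 2 only 1 was. The CVX-060 rats lay between, with 3 to 6 genes above the median.

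**Figure D4:**
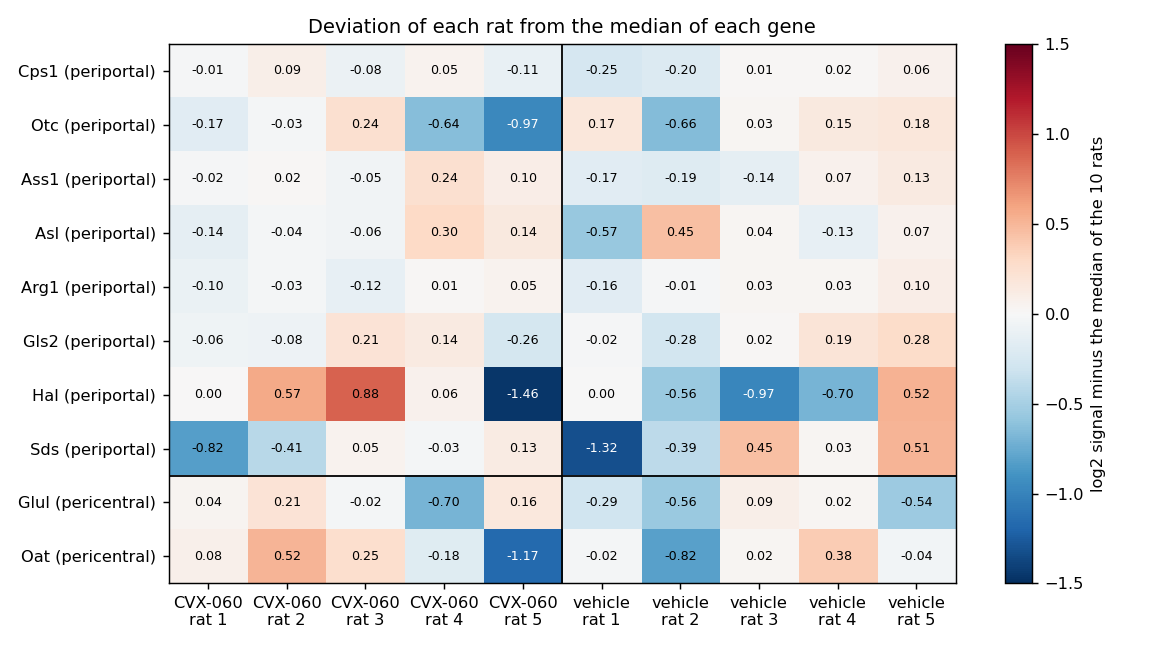
Deviation of each gene (rows) from its median over the 10 rats in log2 units, CVX-060 rats left of vehicle rats. Low Otc and Oat meet in CVX-060 rat 5 and vehicle rat 2, and vehicle rat 1 is low in Sds, Asl and Arg1.

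The treatment comparison asked whether CVX-060 shifted these genes in cirrhotic liver. None of the 10 passed an adjusted p of 0.05 in limma, which called 0% of all genes, and none had an unadjusted p under 0.05, which 2.44% of all genes did. Both groups overlapped in all 10 genes, whereas 0.485% of all genes had groups without overlap. With CVX-060 5 genes had a higher mean and 5 a lower one, 4 and 4 of the periportal and 1 and 1 of the pericentral genes. Without vehicle rat 5, 8 had the higher mean. The median difference was 0.03 over the 10 genes and 0.01 over all genes, of which 52.6% had a higher mean with CVX-060. The lowest adjusted p of any gene in limma was 0.99997.

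The intervals show what size of change these rats could still hide. For Cps1 the mean was 13.24 ± 0.08 with CVX-060 and 13.18 ± 0.14 with vehicle (SD, n = 5 each), a difference of 0.06 log2 units with a 95% interval of -0.12 to 0.24. Arg1 was as tightly bounded, at 13.68 ± 0.07 with CVX-060 and 13.72 ± 0.10 with vehicle, a difference of -0.03 (-0.19 to 0.12), and -0.06 without CVX-060 rat 5 and vehicle rat 2. Ass1 had the smallest exact permutation p of the 10, 0.18, with 13.53 ± 0.12 with CVX-060 and 13.41 ± 0.15 with vehicle and a difference of 0.12 (-0.08 to 0.32), and 0.08 without CVX-060 rat 5 and vehicle rat 2. The smallest p that 5 rats against 5 allow in this test is 0.0079. With each rat left out in turn the difference ran from 0.016 (without vehicle rat 1) to 0.093 (without vehicle rat 5) for Cps1, from -0.075 (without vehicle rat 1) to -0.0084 (without vehicle rat 5) for Arg1, and from 0.073 (without CVX-060 rat 4) to 0.17 (without vehicle rat 5) for Ass1. For these 3 genes of the cycle the interval was narrow, but the size of the difference within it moved by over 1.5 times with 1 rat.

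For the variable genes it was wide. Otc averaged 12.26 ± 0.49 with CVX-060 and 12.54 ± 0.36 with vehicle, a difference of -0.29 (-0.82 to 0.25; exact permutation p = 0.29), which was -0.12 without CVX-060 rat 5 and -0.44 without vehicle rat 2. Asl averaged 12.05 ± 0.18 with CVX-060 and 11.98 ± 0.37 with vehicle, a difference of 0.07 (-0.30 to 0.44), which was -0.06 without vehicle rat 1 and 0.17 without CVX-060 rat 5 and vehicle rat 2. Hal averaged 10.00 ± 0.90 with CVX-060 and 9.65 ± 0.60 with vehicle, a difference of 0.36 (-0.59 to 1.30; exact permutation p = 0.46), which was 0.14 without CVX-060 rat 3 and 0.72 without CVX-060 rat 5, and 0.67 without CVX-060 rat 5 and vehicle rat 2. Leaving out a single rat thus moved each of these by over 1.5 times or turned its sign. With the level of the clock gene Bmal1 as a covariate the difference was -0.37 for Otc, 0.13 for Asl and 0.11 for Hal. The part of Bmal1 in these values was not tested beyond this fit.

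Sds averaged 12.20 ± 0.40 with CVX-060 and 12.27 ± 0.75 with vehicle, a difference of -0.08 (-0.82 to 0.67), which was -0.22 without CVX-060 rat 5 and vehicle rat 2. With the level of the clock gene Bmal1 as a covariate the difference was 0.23, and Bmal1 read 8.38, 8.75, 8.17, 5.75 and 5.21 in CVX-060 rats 1 to 5, against 7.90, 7.95, 5.13, 4.87 and 4.88 in vehicle rats 1 to 5, high in 3 rats with CVX-060 and 2 with vehicle. Its part in the Sds values was not tested beyond this fit. Gls2 averaged 11.74 ± 0.19 with CVX-060 and 11.79 ± 0.22 with vehicle, a difference of -0.05 (-0.32 to 0.22).

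Of the pericentral genes, Glul averaged 10.63 ± 0.37 with CVX-060 and 10.44 ± 0.30 with vehicle, a difference of 0.19 (-0.24 to 0.62; exact permutation p = 0.41). It was 0.35 without CVX-060 rat 4, 0.12 without vehicle rat 2 and 0.06 without CVX-060 rat 5 and vehicle rat 2. The 2 other Glul probe sets gave -0.03 and 0.17, so that they disagreed in sign. Oat averaged 12.09 ± 0.65 with CVX-060 and 12.09 ± 0.44 with vehicle, a difference of -0.0049 (-0.69 to 0.68), which was 0.26 without CVX-060 rat 5 and 0.082 without CVX-060 rat 5 and vehicle rat 2. In both zones every interval included 0.

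**Figure D5:**
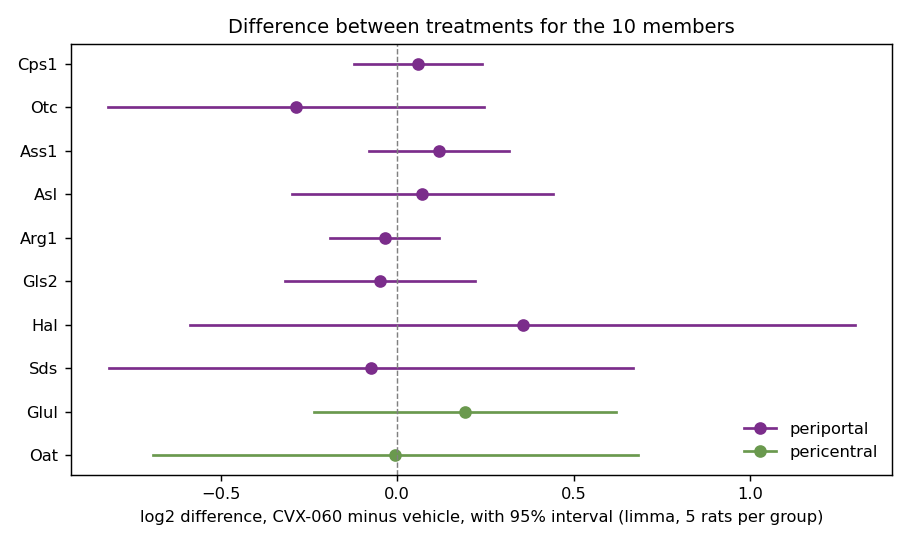
CVX-060 minus vehicle in log2 units for each gene, with its 95% interval from limma, periportal genes above pericentral ones. Every interval includes 0, and those of Cps1 and Arg1 are the narrowest while that of Hal reaches from -0.59 to 1.30.

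The wider pathway was read in 6 lists that hold 80 genes, of which 72 were measured. None of the 72 passed limma's adjusted p of 0.05 or had an unadjusted p under 0.05, and 29 had a higher and 43 a lower mean with CVX-060. Of 12 other urea cycle and ammonia genes, 5 had the higher mean with CVX-060 and 7 the lower, at a median difference of -0.01. Got1, the cytosolic aspartate aminotransferase, differed by 0.19, and Arg2, the mitochondrial arginase, by 0.15, though it was below background in every rat. Slc25a15, the carrier that brings ornithine into the mitochondrion, differed by -0.16 in the probe set used and by -0.03 to 0.14 in its 5 others, of which 1 was below background in every rat. Got2 was read by a probe set below background, at -0.13, and by another above it, at 0.01.

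Of 11 transporters of ammonia, glutamine and amino acids 7 had the higher mean and 4 the lower, and the median difference was 0.05. Slc7a7, part of a carrier of basic amino acids, differed by 0.23 and was above background in only 7 rats. Slc7a2, another such carrier, differed by -0.16, Slc25a22, the mitochondrial glutamate carrier, by 0.16 and Slc38a2, a carrier of neutral amino acids, by -0.12. Of 21 genes of amino acid breakdown and related steps 11 had the higher mean and 10 the lower, and the median difference was 0.0028. Aldh18a1, which starts proline and ornithine synthesis from glutamate, differed by 0.46, Aass, which breaks down lysine, by 0.30, Sdsl, a relative of Sds, by -0.19 and Tat, the tyrosine aminotransferase, by -0.17. The median differences of these 3 lists were within 0.05 of the 0.01 over all genes.

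Other zonated genes gave no common shift. Of 7 other periportal genes 2 had the higher mean and 5 the lower, and the median difference was -0.08, with values for the gluconeogenic Fbp1 at -0.08 and Pck1 at -0.05, the lipid droplet protein Hsd17b13 at -0.19 and the P450 Cyp2f4 at -0.19. Of 11 other pericentral genes 3 had the higher mean and 8 the lower, and the median difference was -0.07. Avpr1a, a vasopressin receptor, differed by 0.65, with 7.10 to 10.12 with CVX-060 against 7.08 to 8.87 with vehicle. Slc13a3, a dicarboxylate carrier, differed by 0.32 and was above background in only 6 rats. Tbx3 differed by -0.35 in the probe set used, which was above background in only 6 rats. Its 3 other probe sets gave -0.08 to 0.08 and were above background in 0 to 7 rats. Lgr5, a receptor of the Wnt pathway, differed by -0.07 at a signal below background in every rat.

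Of 10 regulators of these pathways 1 had the higher mean and 9 the lower, and the median difference was -0.10. Over all genes 52.6% had the higher mean. Only 6 of the 10 were above background in every rat, and 2 of the 9 lower ones were below it in every rat. The count was not tested. Klf15, a transcription factor of amino acid breakdown, differed by -0.36 (exact permutation p = 0.071) with 6.61 to 7.44 with CVX-060 against 7.02 to 7.65 with vehicle. Its 2 other probe sets gave -0.23 and -0.08, the last of them below background in every rat. Nr3c1, the glucocorticoid receptor, differed by -0.26 (exact permutation p = 0.13), and by 0.05 in another probe set that was below background in every rat. Cebpb differed by -0.13 (exact permutation p = 0.11) and Cebpa by -0.34 (exact permutation p = 0.26), with -0.30 to -0.24 in the 4 other probe sets of Cebpa. The groups overlapped in all of these. The immediate early genes Fos, Jun, Egr1 and Atf3, which respond to handling of the tissue, had a log2 summed signal of 11.48 to 13.57 with CVX-060 against 12.27 to 13.62 with vehicle; their part in the regulators' values was not tested.

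The genes most like Cps1 over the 10 rats, of 7426 compared, were Akr1c14, a hydroxysteroid dehydrogenase (r = 0.86), Mat1a, the liver's methionine adenosyltransferase (0.79), P3h1, a collagen prolyl hydroxylase (0.77), Lap3, a leucine aminopeptidase (0.77) and Tfrc, the transferrin receptor (0.75). Those most like Glul were Retreg3 (r = 0.90), the Hippo pathway scaffold Sav1 (0.89), the saposin precursor Psap (0.84), the phospholipid flippase Atp8a1 (0.84) and the actin cross-linker Actn1 (0.83), none of them among the pericentral genes listed. Those most like Hal, the gene of largest SD, were the lysosomal thioesterase Ppt2 (r = 0.96), the stress protein Tp53inp1 (0.93), Fbxo8 (0.93), the phospholipase Plcb1 (0.91) and the isocitrate dehydrogenase subunit Idh3g (0.90). These are the highest of many values over 10 arrays that share their processing, and they carry no test.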

How the data were processed

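RNA of whole liver was hybridised to an Affymetrix rat genome array for each rat. The authors deposited log2 signals per probe set. The submitters list R 3.4.0 with affy 1.56.0 and limma 3.38.2. The methods of background correction, normalisation and summary are not given in the sources used here. These values were used as deposited. Of 31099 probe sets, 57 controls, 436 with several gene symbols and 9780 without one were left out, and each of 14217 genes was read from its most variable probe set. CVX-060 was compared with vehicle by limma 3.58.1 (lmFit, eBayes; R 4.3.3) with Benjamini-Hochberg adjustment, tested on simulated data. Single differences were also tested by exact two-sided permutation over 252 splits, and pairs of genes by 100000 permutations (Python 3.11.15, scipy 1.17.1). The 10 genes and all lists were chosen with earlier results of these data known. Beside the 10 genes, the text names up to 4 genes of each list by the smallest unadjusted p, the 5 genes most correlated with Cps1, Glul and the gene of largest SD, and Bmal1. It also names the markers of cell types and tissue handling. Cyp2c11, Cyp2c12, Eif2s3y, Xist, Asns and Dao lie outside this rule and were picked after their values were known. The number of arrays limits the precision.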

Additional observations from a re-analysis of the deposited data

Results flagged for a closer look

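Each of the 10 genes was examined within both groups, 20 groups of 5 rats in all, for a rat that lay far from the other 4. A gap to the nearest rat of more than 0.71 of the group's range was taken as far, which chance gives in about 1 of 20 groups, and 2 were found. Glul in CVX-060 rat 4 read 9.99 where the other CVX-060 rats read 10.67 to 10.90, a gap of 0.746 of the range. That rat was also the lowest of its group in the 2 other Glul probe sets, but nearer to the next rat. It read 7.97 where the other CVX-060 rats read 8.20 to 8.83, and 9.47 where they read 9.76 to 10.30. The rule was not applied to those probe sets. Otc in vehicle rat 2 read 11.91 where the other vehicle rats read 12.60 to 12.74, a gap of 0.825 of the range, and Otc has no second probe set.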

How the results depend on the processing

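No gene was called in limma under any setting run. The count at an unadjusted p under 0.05, 347, was 557 with every probe set, 156 with a filter at the 40th percentile, 686 with array weights, 816 with Bmal1 as a covariate, 581 without CVX-060 rat 5 and vehicle rat 2, and 290 to 713 with each rat left out, highest without vehicle rat 2. The replicate number as a block gave 389 and no call; same-numbered rats share only a number, with correlations of deviations of -0.17 to 0.15. Signs turned for Cps1, at -0.0040 with the probe set of highest mean, for Oat, at 0.046 with array weights and 0.082 without both rats, and, with Bmal1 as a covariate, for Arg1, at 0.012, and Sds, at 0.23. For Gls2 with Oat, r was -0.18 without both rats. The pericentral genes higher with CVX-060 were 2 with array weights and without both rats. With each rat left out in turn the difference ran between -0.063 and 0.19 for Asl, -0.13 and 0.013 for Gls2, -0.37 and 0.088 for Sds and -0.19 and 0.26 for Oat, 5 to 8 of the 10 genes were higher (8 without vehicle rat 5), 1 to 2 of the pericentral ones were, and 0 to 1 pairs passed the adjustment. Differences of Cps1, Otc, Ass1, Arg1, Hal and Glul kept their sign with every rat left out. The cause of these changes was not tested. With 5 arrays a group, a difference of any size inside a gene's 95% interval was not excluded.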

Other observations

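Some listed genes, picked after their values were seen, shared their 3 extreme rats with Otc. The order of the other rats was not compared. Asns, the asparagine synthetase, read 7.23, 7.20, 5.90, 9.07 and 9.34 in CVX-060 rats 1 to 5, against 6.68, 8.54, 6.92, 7.21 and 7.73 in vehicle rats 1 to 5, so that the 3 rats lowest in Otc were its 3 highest. Aldh18a1 read 7.23 and 7.58 in CVX-060 rats 4 and 5 and 6.98 in vehicle rat 2, again its 3 highest values. Dao, the D-amino acid oxidase, read 9.24, 9.26, 9.86, 8.63 and 7.71 with CVX-060, against 10.05, 8.62, 9.52, 9.33 and 9.34 with vehicle, lowest in the same rats.

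Among 37 genes of the urea cycle, transporter and amino acid lists that were above background in all rats, 13 were lowest in CVX-060 rat 5 and 9 in vehicle rat 2, shares of 35.1% and 24.3%, where 13.5% and 12.6% of all genes above background were. The highest value fell in CVX-060 rat 3 for 9 of the 37 and in vehicle rat 5 for 10, shares of 24.3% and 27.0%, where 10.7% and 8.43% of all genes above background had theirs. No test was made of these shares.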
